A study of Mus musculus with 7 samples.

Results

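The 9 mouse plexin genes and the neuropilin gene Nrp1 were followed in RNA of the suprachiasmatic nucleus (SCN), the seat of the master circadian clock in the hypothalamus and a target of retinal ganglion cell axons. All 10 genes were taken by symbol from a deposited table of 55487 genes. The set was chosen by a measured value, the difference between the groups, in which Plxna2 was already known to be past the threshold. The members' group differences are therefore described here and not tested. Any adjusted p-value printed for a member describes the fit over all genes and is no independent support. The study compared DBA2J mice, which carry a spontaneous Gpnmb mutation and develop high intraocular pressure and retinal damage, with control mice of the strain DBA/2J-Gpnmb+SjJ, which lack that mutation. There were 4 control libraries, titled scn_cont_565, scn_cont_567, scn_cont_568 and scn_cont_570, and 3 libraries from advanced glaucoma, titled scn_glauc_152, scn_glauc_153 and scn_glauc_154. All mice were kept in a cycle of equal light and dark, and the genotype field reads WT in both groups. The sources used here give no age, sex or time of day for the libraries. The labels do not tie each library to an animal, so the p-values below measure the spread between these libraries.

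Plexins are single-pass receptors for semaphorins, a large family of secreted and membrane-bound guidance proteins. Their cytoplasmic part carries a GTPase-activating domain for small G proteins of the Ras and Rap families, through which they loosen adhesion and collapse growth cones. Neuropilins bind secreted class 3 semaphorins and VEGF and pair with class A plexins, having themselves only a short cytoplasmic tail. In the adult brain these receptors are found on neurons, glia and vessels and are linked to synapse number and axon stability.

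The RefSeq promoter windows (GRCm38.p6, 250 bases before to 50 after the start) of the 2 members on which most of the account turns are printed here. They are Plxna2, which had the largest positive difference between the groups among the members, and Nrp1, which was lower in each advanced glaucoma library than in any control library. A script searched both strands for CACGTG, the E-box bound by CLOCK and BMAL1, for AGGTCA, the core of sites bound by nuclear receptors such as RORA, and for TGACGTCA, the cAMP response element. Capitals mark a match.

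Plxna2 (chr1:194619579-194619878, plus strand): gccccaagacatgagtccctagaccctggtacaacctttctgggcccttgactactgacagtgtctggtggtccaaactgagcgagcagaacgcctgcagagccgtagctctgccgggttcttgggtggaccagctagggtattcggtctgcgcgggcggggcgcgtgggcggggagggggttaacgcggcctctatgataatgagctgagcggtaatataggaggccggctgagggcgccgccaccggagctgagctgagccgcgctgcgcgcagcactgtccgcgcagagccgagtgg

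Nrp1 (chr8:128358823-128359122, plus strand): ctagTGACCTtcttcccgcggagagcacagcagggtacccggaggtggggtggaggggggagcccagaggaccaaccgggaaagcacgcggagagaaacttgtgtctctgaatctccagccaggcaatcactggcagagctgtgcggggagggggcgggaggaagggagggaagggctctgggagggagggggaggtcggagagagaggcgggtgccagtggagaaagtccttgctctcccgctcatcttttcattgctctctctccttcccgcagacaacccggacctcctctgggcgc

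The Plxna2 window held none of the 3 motifs, and the Nrp1 window held 1 AGGTCA, which reads TGACCT on the printed strand, beginning 246 bases before the start. Windows were found for 8 of the 10 members, Plxnb2 having 2 of the 9. No member window held CACGTG, which 7.15% of all 32851 windows hold, or TGACGTCA, which 1.79% hold. AGGTCA stood in 3 of the 9 windows, those of Nrp1, Plxnd1 and 1 of Plxnb2, against 16.3% of all windows. These are letter matches in short windows and say nothing of binding.

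The libraries held 2174456 to 5285093 counts, made by BRB-seq, which tags the 3′ ends of transcripts. Levels are CPM, in which a gene's count is set against the total of its library, adjusted for composition with TMM factors. All 10 members passed the filter on low counts, with 12 to 461 counts per library. Of 12 SCN marker genes, 9 were lower in advanced glaucoma (adjusted p under 0.05 by edgeR). The summed level of all 12 overlapped between the groups, at 1883 to 7249 CPM in control and 390 to 3457 CPM in advanced glaucoma. Avp, which was not called, alone ran from 1064 to 6718 CPM in control and from 126 to 3234 CPM in advanced glaucoma. Without Avp the sum ran from 531 to 819 CPM in control and from 222 to 274 CPM in advanced glaucoma. In bulk tissue, fewer cells of a type and less RNA per cell cannot be told apart.

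Every class of plexin was present in the SCN samples. Divided by exon length, the mean level over the 7 libraries was highest for Plxnc1, the receptor for the membrane-anchored semaphorin 7A, at 9.54 ± 0.965 CPM per kb (SD, n = 7). Plxna1 and Plxnb2 followed at 7.14 ± 0.983 and 7.12 ± 0.869 CPM per kb. Plxnc1 stood above Plxna1 in 7 of 7 libraries, while Plxna1 stood above Plxnb2 in 4 of 7, so those neighbours did not separate. Plxnb1, Nrp1, Plxna4, Plxna3 and Plxna2 lay between 4.46 and 3.59 CPM per kb, and each stood above the next in 4 or 5 of the 7 libraries. Plxnb3 and Plxnd1 were the lowest, at 1.28 ± 0.607 and 1.01 ± 0.279 CPM per kb. A 3′ tag count need not grow with transcript length, and without the division by length the order was led by Plxnc1 and Plxna1, at means of 79.6 and 64.6 CPM. The place of Plxna2 on that scale differed by group: its mean lay below that of Plxnb2 in control, at 48.9 against 54.7 CPM, and above that of Plxna1 in advanced glaucoma, at 78.6 against 67.0 CPM. It stood above Plxnb2 in 3 of the 7 libraries.

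The members also differed in how steady they were among control libraries. The coefficient of variation in control was 7.16% for Nrp1, 9.50% for Plxnc1 and 10.2% for Plxna2, and reached 35.4% for Plxnd1 and 42.3% for Plxnb3, which rest on few counts. Library scn_cont_565, the shallowest, was the lowest control library for 7 of the 9 plexins, while Plxnb3 and Plxnd1 were lowest in library scn_cont_567. Library scn_cont_565 was not low for Nrp1, where it was the highest, at 47.2 CPM.

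**Figure D1:**
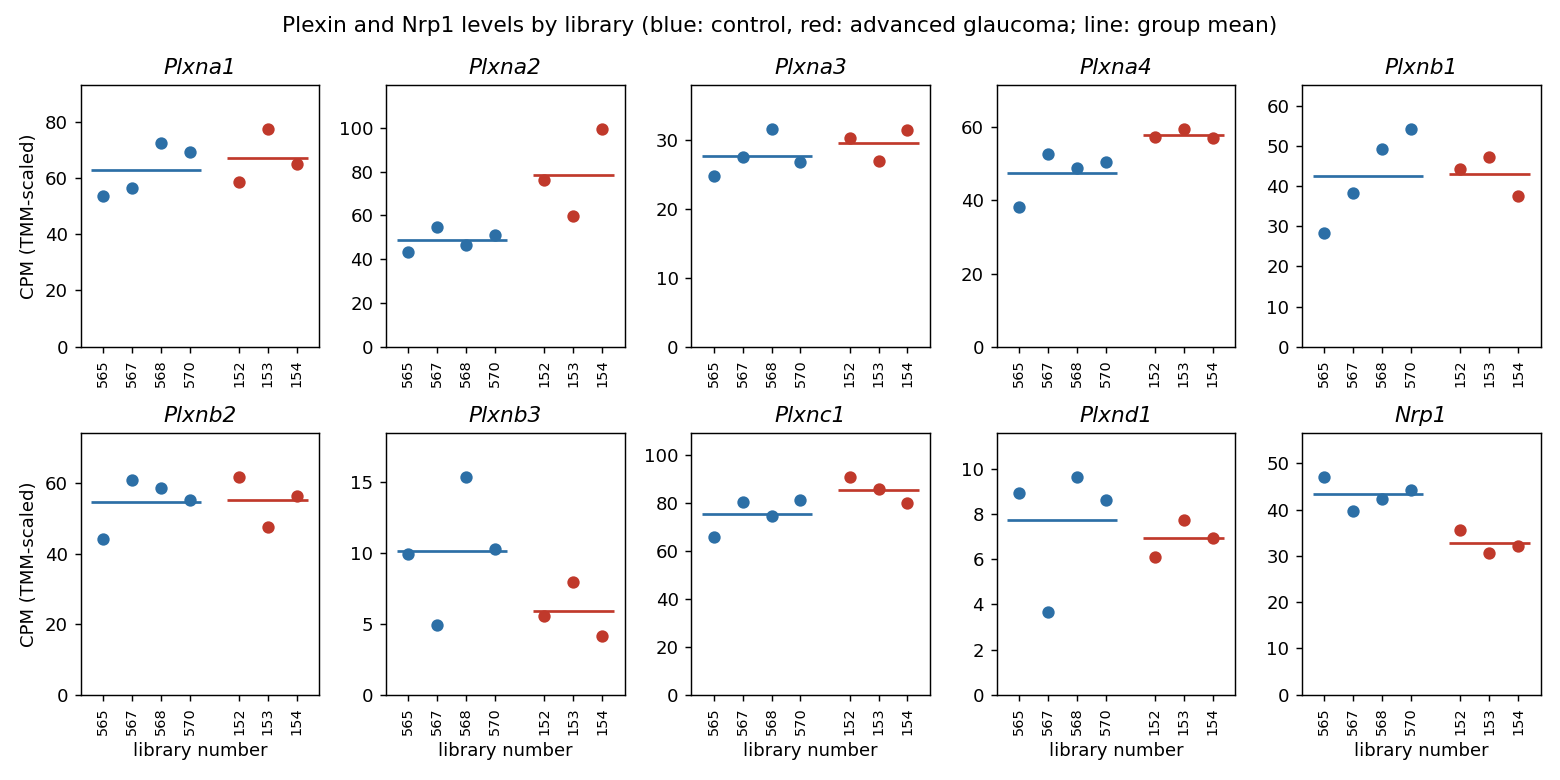
Level of each plexin and Nrp1 in every library, in TMM-scaled CPM on the vertical axis from 0, with control libraries in blue, advanced glaucoma in red and a line at each group mean. Plxna2 and Plxna4 lie higher in all 3 advanced glaucoma libraries than in the control libraries and Nrp1 lies lower; the other panels overlap.

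Among the class A plexins, which pair with neuropilins and also bind class 6 semaphorins directly, Plxna2 differed most between the groups. Plxna2 (ENSMUSG00000026640, chromosome 1, 194618218 to 194816869 in GRCm38, the assembly of mm10) encodes plexin-A2, a receptor for semaphorins 6A and 5A. Its level was 43.2, 54.5, 46.6 and 51.1 CPM in control libraries scn_cont_565, scn_cont_567, scn_cont_568 and scn_cont_570, and 76.1, 59.9 and 99.7 CPM in advanced glaucoma libraries scn_glauc_152, scn_glauc_153 and scn_glauc_154. The groups did not overlap, but library scn_glauc_153 stood much closer to the control libraries than scn_glauc_154 did. The mean was 48.9 ± 4.97 CPM in control (SD, n = 4) against 78.6 ± 20.0 CPM in advanced glaucoma (SD, n = 3), a log2 fold change of 0.67 (SE 0.145, 95% interval 0.37 to 0.97) or 1.59-fold.

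Plxna2 was the only member past the threshold over all 14020 genes tested (adjusted p = 0.0284 by edgeR). That was known when the set was chosen, so it is a description and no support. The same rule was met by 0.471% of all genes, and by 0.0927% in the higher direction. The call was lost without control library scn_cont_565 (adjusted p = 0.0645), scn_cont_568 (0.119) or scn_cont_570 (0.0712), without advanced glaucoma library scn_glauc_152 (0.0793) or scn_glauc_154 (0.388), and with limma-voom weights (0.0533). The log2 fold change was 0.47 without library scn_glauc_154 and 0.83 without library scn_glauc_153. It was above 0 in 14 of 14 alternatives. These reuse the same libraries, and with no overlap between the groups, leaving out a single library could hardly change the sign.

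The summed level of 11 listed markers of neighbouring hypothalamic nuclei was 2494 to 4169 CPM in control. For scn_glauc_152, scn_glauc_153 and scn_glauc_154 it was 3104, 4209 and 2091 CPM, the reverse of the order of Plxna2. None of the 11 was at 0 throughout. By mean, Oxt and Sst were the highest, at 1801 and 1134 CPM in control and 865.5 and 990 CPM in advanced glaucoma. Oxt, Sst, Trh and Crh had log2 fold changes below 0 and the rest of the list above 0. Among the latter, Ghrh had a control mean of 16.2 ± 8.10 CPM (SD, n = 4). It was at 77.6, 38.4 and 65.6 CPM in that order of the advanced glaucoma libraries, and was not called. Of the 11, 1 was called, Nkx2-1, singled out after its values were seen. Nkx2-1, which encodes a homeobox factor of the basal hypothalamus, was at 20.4, 26.0, 27.8 and 12.6 CPM over the control libraries and reached 47.5, 41.6 and 56.8 CPM in that order of the advanced glaucoma libraries, so it was lowest in scn_glauc_153 and highest in scn_glauc_154, as Plxna2 was. Pmch, a peptide gene of the lateral hypothalamus also singled out after its values were seen, had a control mean of 17.9 ± 6.67 CPM (SD, n = 4) and lay above it in each advanced glaucoma library, highest in scn_glauc_153 at 1331 CPM, with 285 CPM in scn_glauc_152 and 202 CPM in scn_glauc_154; it was not called (adjusted p = 0.184, edgeR). The summed level of 14 myelin genes was also highest in scn_glauc_153 and lowest in scn_glauc_154, with 4210 to 5387 CPM in control against 3396, 4814 and 2282 CPM for scn_glauc_152, scn_glauc_153 and scn_glauc_154, with 0 of the 14 called. When the myelin list's mean was added as a covariate, the Plxna2 log2 fold change was 0.27 (95% interval -0.06 to 0.61; adjusted p = 0.923 by edgeR). The summed level of 6 ependyma and tanycyte genes, singled out after its values were seen, was 127 to 155 CPM in control. For scn_glauc_152, scn_glauc_153 and scn_glauc_154 it was 177, 105 and 214 CPM, the order of Plxna2. Unlike Plxna2, it lay below the control range in scn_glauc_153, and 0 of the 6 were called. The part of neighbouring tissue in the Plxna2 difference was not tested.

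**Figure D2:**
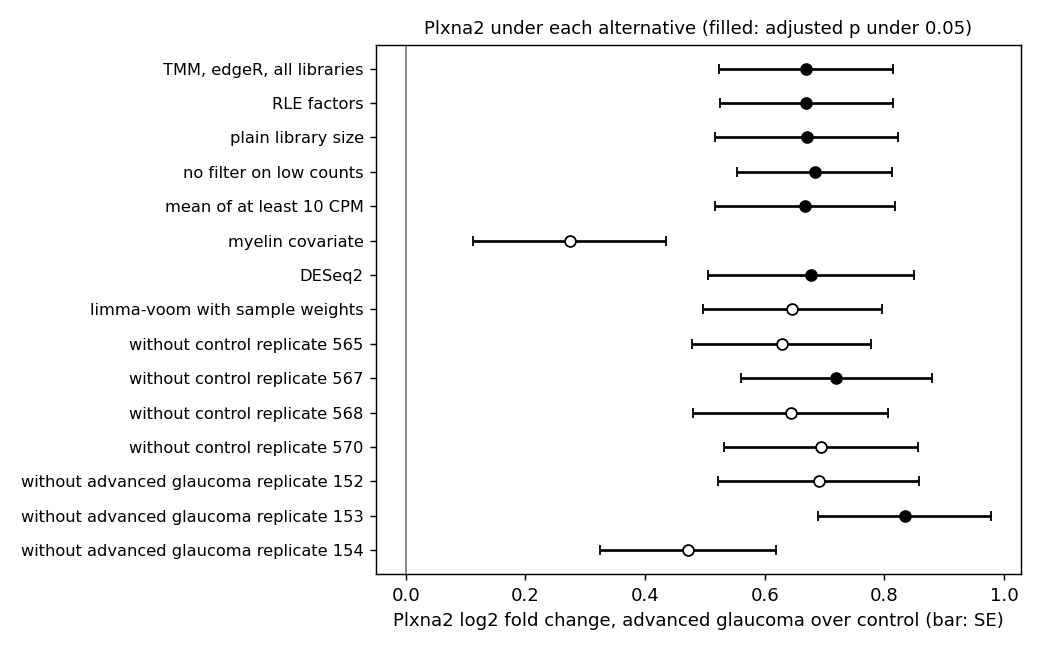
Log2 fold change of Plxna2, advanced glaucoma over control, on the horizontal axis for the fit with all libraries and for 14 alternatives, with bars of 1 SE and filled points where the adjusted p was under 0.05. The estimates run from 0.27 with the myelin covariate to 0.83 without library scn_glauc_153, and 7 of the 14 alternatives are filled.

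The remaining class A plexins differed less. Plxna4 (chromosome 6, 32144268 to 32588192), a receptor for semaphorin 6A and, with Nrp1, for semaphorin 3A, measured 38.2, 52.6, 48.8 and 50.6 CPM in control against 57.3, 59.7 and 57.1 CPM in advanced glaucoma. All 3 advanced glaucoma libraries lay close together above the highest control library, with a log2 fold change of 0.27 (SE 0.130, 95% interval 0.00 to 0.54) that became 0.20 without library scn_cont_565. Plxna1 (chromosome 6) was at 62.9 ± 9.28 and 67.0 ± 9.70 CPM and Plxna3 (chromosome X) at 27.7 ± 2.90 and 29.6 ± 2.41 CPM (SD, n = 4 and n = 3), with groups that overlapped and 95% intervals of the log2 fold change of -0.20 to 0.35 and -0.25 to 0.42.

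Counts within a library need no scaling, and on that measure library scn_glauc_153 fell among the controls. Plxna2 took 27.0%, 28.5%, 23.4% and 25.9% of class A plexin counts in control libraries scn_cont_565, scn_cont_567, scn_cont_568 and scn_cont_570. In libraries scn_glauc_152 and scn_glauc_154 the share was 34.2% (exact 95% binomial interval 31.5% to 37.1%) and 39.4% (36.2% to 42.6%), and in scn_glauc_153 it was 26.7% (24.1% to 29.5%). These intervals cover counting error only. Against Plxna1 the count ratio of Plxna2 was 0.644 to 0.967 in control, and 1.30, 0.772 and 1.54 in libraries scn_glauc_152, scn_glauc_153 and scn_glauc_154.

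**Figure D3:**
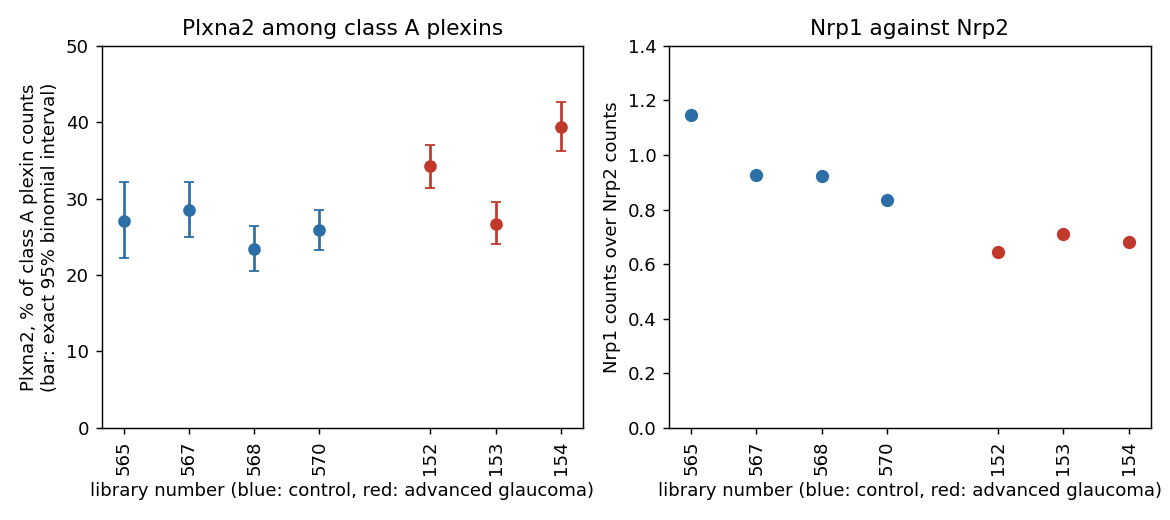
Left, Plxna2 as a percentage of all class A plexin counts in each library, with exact 95% binomial intervals; right, the ratio of Nrp1 to Nrp2 counts in each library (blue, control; red, advanced glaucoma). The Plxna2 share of library scn_glauc_153, 26.7%, lies within the control range, while the Nrp1 to Nrp2 ratio is at most 0.710 in all 3 advanced glaucoma libraries and at least 0.837 in control.

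Nrp1 was the member whose level was lower in advanced glaucoma with the least scatter. Nrp1 (ENSMUSG00000025810, chromosome 8, 128358604 to 128503363) measured 47.2, 39.8, 42.4 and 44.3 CPM in control against 35.7, 30.6 and 32.1 CPM in advanced glaucoma. The groups did not overlap. The mean was 43.4 ± 3.11 and 32.8 ± 2.60 CPM (SD, n = 4 and n = 3), a log2 fold change of -0.40 (SE 0.144, 95% interval -0.70 to -0.10), which did not pass over all genes (adjusted p = 0.366 by edgeR). It was below 0 in 14 of 14 alternatives, from -0.47 to -0.35, and was -0.40 with the myelin covariate. As for Plxna2, leaving out a single library could hardly change the sign, since the groups did not overlap.

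Its paralogue Nrp2, which prefers semaphorin 3F and VEGF-C, did not share the direction, with 45.7 ± 5.19 against 48.5 ± 6.26 CPM (log2 fold change 0.07, 95% interval -0.21 to 0.36). The ratio of Nrp1 to Nrp2 counts was 1.15, 0.929, 0.924 and 0.837 in control libraries scn_cont_565, scn_cont_567, scn_cont_568 and scn_cont_570 and 0.644, 0.710 and 0.682 in scn_glauc_152, scn_glauc_153 and scn_glauc_154. Nrp1 is also made by endothelial cells; the summed level of 10 endothelial and pericyte genes was 256 to 350 CPM in control and 271 to 289 CPM in advanced glaucoma, with 0 of 10 called. Within that list, Kdr was at 18.3 ± 5.89 and 12.9 ± 1.18 CPM and Pecam1 at 9.76 ± 3.49 and 5.69 ± 1.99 CPM, while Flt1 was at 61.8 ± 4.56 and 64.2 ± 6.51 CPM (SD, n = 4 and n = 3); the part of vessels in the Nrp1 difference was not tested. The summed SCN markers without Avp, given above, were lower in the same libraries as Nrp1, while the sum with Avp overlapped between the groups. The part of SCN cells in the Nrp1 difference was not tested.

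The class B plexins, receptors for class 4 and class 5 semaphorins, overlapped between the groups. Plxnb1 (chromosome 9), a receptor for semaphorin 4D, averaged 42.6 ± 11.7 CPM in control against 43.1 ± 4.97 CPM in advanced glaucoma. Plxnb2 (chromosome 15), which is widespread in the brain and binds class 4 semaphorins, was at 54.7 ± 7.43 and 55.3 ± 7.20 CPM (SD, n = 4 and n = 3). Their 95% intervals of the log2 fold change were -0.37 to 0.34 and -0.28 to 0.28.

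Plxnb3 (chromosome X), a receptor for semaphorin 5A that is enriched in oligodendrocytes, measured 9.93, 4.90, 15.4 and 10.3 CPM in control against 5.52, 7.97 and 4.15 CPM in advanced glaucoma. Control library scn_cont_567 lay inside the advanced glaucoma range, so the groups overlapped. The log2 fold change was -0.78 (SE 0.345, 95% interval -1.49 to -0.07), on 15 to 62 counts per library. It was -0.17 with the myelin covariate. Among the advanced glaucoma libraries Plxnb3 and the summed myelin genes stood in the same order, highest in scn_glauc_153 and lowest in scn_glauc_154. Among the control libraries the orders differed. Both were lowest in scn_cont_567, but Plxnb3 was highest in scn_cont_568, where the myelin sum was 4804 CPM. That sum was highest in scn_cont_565, at 5387 CPM. The part of myelin in the Plxnb3 difference was not tested.

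Plxnc1 (chromosome 10) was at 65.5, 80.2, 74.4 and 81.0 CPM in control and at 90.8, 85.5 and 79.8 CPM in advanced glaucoma, with library scn_glauc_154 inside the control range. Its log2 fold change was 0.17 (95% interval -0.06 to 0.40). Plxnd1 (chromosome 6), the semaphorin 3E receptor of vessels and some neurons, was near the lower end of what these libraries resolve, at 8.94, 3.67, 9.67 and 8.65 CPM in control and 6.11, 7.76 and 6.92 CPM in advanced glaucoma. Its interval, -0.84 to 0.52, covers differences of either sign.

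Over the family, 6 members had a log2 fold change above 0 and 4 below, with a median of 0.04 against -0.01 over all 14020 genes. The groups did not overlap for 3 of the 10 members, Plxna2 and Plxna4 higher and Nrp1 lower, against 8.02% of all genes tested, 4.12% higher and 3.91% lower. Since the members were chosen with this contrast known, nothing is read from that count.

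**Figure D4:**
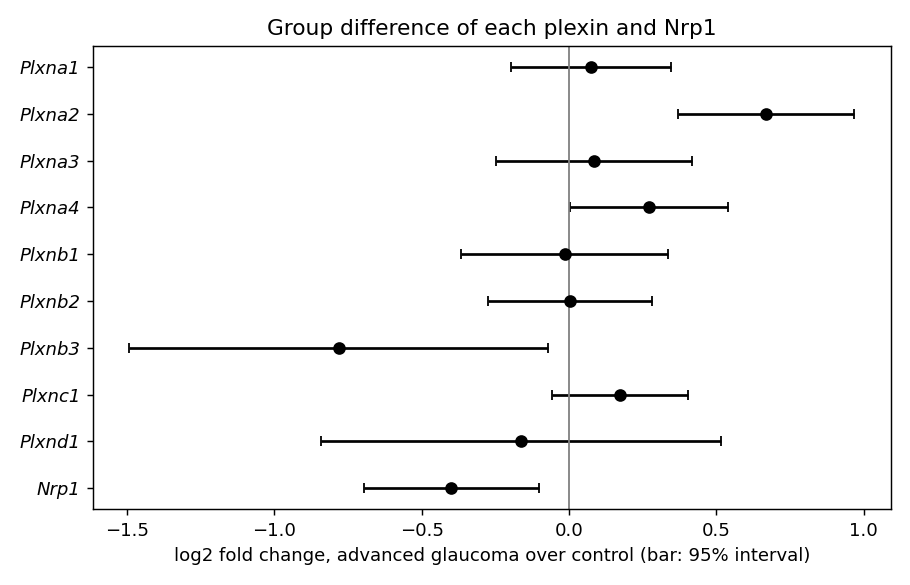
Log2 fold change of each member, advanced glaucoma over control, with 95% intervals from the fit over all genes. Plxna2 at 0.67 has the largest positive value and Plxnb3 at -0.78 the largest negative one, with a wide interval of -1.49 to -0.07.

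The ligands, partners and intracellular genes of the pathway gave no call. Of 89 listed genes, 85 were tested and 0 passed in either direction (edgeR, adjusted p under 0.05); DESeq2 and limma-voom also gave 0. At an unadjusted p under 0.05 there were 8, 4 higher and 4 lower, while 8.20% of all genes reached that level. The median log2 fold change of the 85 was 0.00. The groups did not overlap for 4 of the 85, where 8.02% of all genes tested met that rule: Nrcam, Mical2 and Crmp1 were higher and Vegfb lower in each advanced glaucoma library.

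Of 20 semaphorin genes, 19 were tested and 0 passed. The class 3 genes were low, and the 2 with the smallest p were Sema3f, with 7.78 ± 1.89 CPM in control against 4.31 ± 1.64 CPM (adjusted p = 0.544 by edgeR, log2 fold change -0.82, SE 0.358), and Sema3a, the classical neuropilin-1 ligand, with 2.21 ± 0.739 against 4.32 ± 1.77 CPM (adjusted p = 0.655, log2 fold change 0.89, SE 0.456). The direct ligands of plexin-A2 were at levels near those of the receptor: Sema6a at 54.0 ± 4.24 and 58.9 ± 3.45 CPM, and Sema5a at 46.6 ± 10.3 and 54.2 ± 3.17 CPM (SD, n = 4 and n = 3), with 95% intervals of the log2 fold change of -0.13 to 0.38 and -0.09 to 0.52. In class 4 the smallest p belonged to Sema4a, with a log2 fold change of 0.16 (95% interval -0.12 to 0.44), and to Sema4f, with 0.13 (-0.18 to 0.44). Ligands of the remaining plexins were also measured: Sema4d had a log2 fold change of -0.12, Sema7a one of -0.29 and Sema3e one of -0.11, with intervals that all include 0.

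Of 10 co-receptors and partner receptors 0 passed, and 2 adhesion molecules that join neuropilin complexes had the smallest p. Chl1 averaged 106 ± 12.6 against 130 ± 7.09 CPM (adjusted p = 0.389 by edgeR, log2 fold change 0.29) and Nrcam 99.9 ± 6.13 against 118 ± 7.55 CPM (adjusted p = 0.492, log2 fold change 0.24). Of 4 VEGF family ligands 0 passed. Pgf had a log2 fold change of -0.51 (95% interval -0.99 to -0.03), Vegfb one of -0.19 and Vegfa one of -0.09 (-0.38 to 0.21).

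Of 34 intracellular genes 0 passed. Crmp1 and Dpysl3, which encode collapsin response mediator proteins that relay semaphorin 3A to the cytoskeleton, had the smallest p in that list, with log2 fold changes of 0.33 (SE 0.105, adjusted p = 0.240 by edgeR) and 0.32 (SE 0.121, adjusted p = 0.389). Gipc1, whose PDZ domain binds the tail of neuropilin-1, was at 32.2 ± 12.7 and 24.3 ± 1.49 CPM, the control spread being set by library scn_cont_565 at 50.6 CPM. Among 18 tested receptors of other guidance families (Robo, netrin and Eph receptors) 0 passed; Ephb6 and Unc5b had the smallest p, with log2 fold changes of -0.46 and -0.41.

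**Figure D5:**
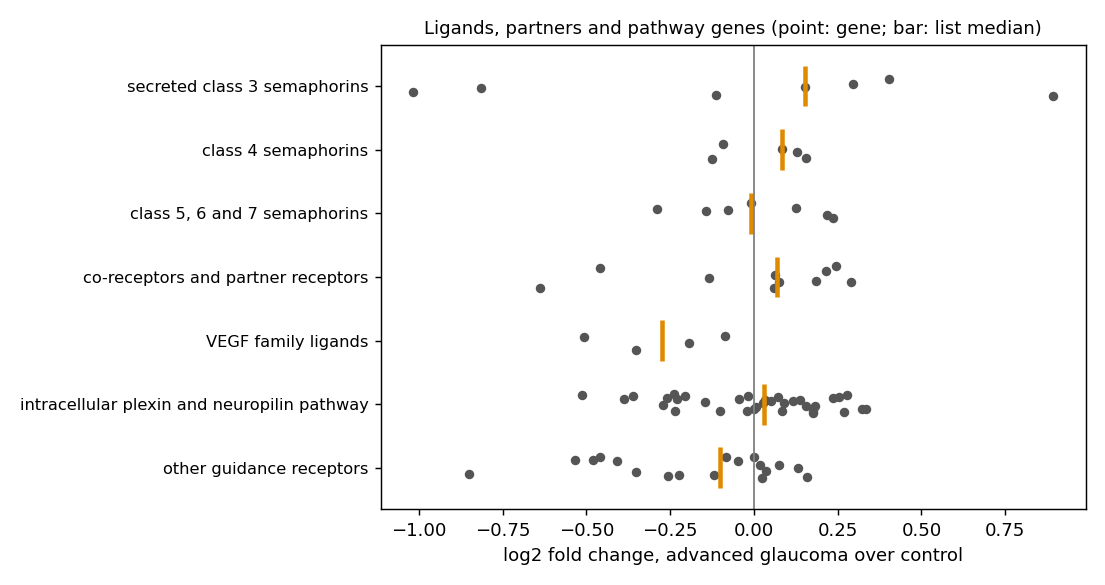
Log2 fold change of each tested gene, advanced glaucoma over control, in 7 lists of semaphorins, partners, intracellular genes and other guidance receptors, 1 point per gene, with a bar at the list median. The list medians lie between -0.27 and 0.15, and the widest spread, -1.02 to 0.89, is among the low-count class 3 semaphorins.

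The genes whose profile over the 7 libraries was most like that of Plxna2, by the root mean square difference of log2 CPM centred on each gene's mean, were Rrp12, Map3k20, Mroh7, Hs2st1 and Acsl5, at 0.129 to 0.148, where Plxna2 itself varied by 0.390 about its mean. None of these passed over all genes. For Nrp1 they included Slc39a6, Scg2, Pcdh11x and Selenbp2, at 0.0656 to 0.0716 against its own variation of 0.217. Of these 4, Scg2, a secretogranin gene, was the only one past the threshold (adjusted p = 0.0209 by edgeR). The comparison was over 10183 genes with a mean of at least 10 CPM. The profiles include the difference between the groups, so group differences of the genes picked this way are no separate result.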

How the data were processed

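RNA from microdissected SCN was sequenced by BRB-seq with the MERCURIUS kit, per the labels' protocols. The authors deposited raw, whole-number counts for each gene. The submitters' processing notes name STAR, HTSeq, featureCounts, DESeq2 and mm10; roles, versions, strand setting, annotation and collapsing of molecular identifiers are not given in the sources used here. A count may thus be a read and not a molecule. Of 55487 identifiers, 55141 matched a symbol, and coordinates come from GENCODE M21 (GRCm38). Antisense genes overlapping the members held at most 19 counts in all libraries together.

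Counts were fitted with edgeR 4.0.16 in R 4.3.3: filterByExpr, which kept 14020 genes, TMM factors, and the robust quasi-likelihood test with group as the only term, adjusted by Benjamini-Hochberg over those genes at 0.05. SE was taken as the absolute log2 fold change divided by the square root of F. Alternatives were RLE factors, library size, no filter, a mean of at least 10 CPM, the myelin covariate, DESeq2 1.42.0, limma-voom (limma 3.58.1) with sample weights, and each library left out. Profiles were compared as log2 CPM (prior count 2). The fit was also run on simulated counts whose changed genes differed by more than any member did, so that run does not bear on the members.

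The members and lists were chosen with earlier results of these data known. The text names all members, list genes that passed or else the 2 with the smallest p, and the 5 most similar profiles to Plxna2 and Nrp1, leaving out unnamed gene models; 1 of these profiles is not reported here. Nrp2, Sema4d, Sema7a, Sema3e, Vegfa, Gipc1, Mical2, Kdr, Flt1, Pecam1, Pmch and Nkx2-1 were named besides, as partners of the members or for their values. Avp, Oxt, Sst, Trh, Crh, Ghrh, Dpysl2, Dpysl4 and Dpysl5 were named to show how their lists divide.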

Additional observations from a re-analysis of the deposited data

Results flagged for a closer look

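Plxnd1 was marked for 1 library that lay apart from the rest of its group. Control library scn_cont_567 had 3.67 CPM, on 12 counts, and the other control libraries 8.65 to 9.67 CPM, a gap of 0.830 of the group's range, just past Dixon's 95% critical value. Among the control levels of 24 genes examined this was the only one, where chance marks about 1 in 20; groups of 3 were not examined.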

How the results depend on the processing

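No paired analysis was possible because the groups share no replicate number. The count of genes called, 13 higher and 53 lower, became 94 and 108 with no filter on low counts and 1 and 17 with the myelin covariate; the higher count was 23 with DESeq2 and 26 with limma-voom. Leaving out single libraries gave 4 to 29 higher (4 without library scn_glauc_154, 5 without scn_cont_570, 29 without scn_cont_567, 24 without scn_glauc_153 and 20 without scn_glauc_152) and 24 to 69 lower (24 without scn_glauc_154 and 28 without scn_cont_570). Of the 10 members, 1 was called, and 0 with the myelin covariate or with limma-voom weights; leaving out single libraries gave 0 to 1. The Plxna2 log2 fold change was 0.27 and 0.65 in those settings and 0.47 to 0.83 with single libraries left out. With the myelin covariate, Plxna2 and Plxnb3 each moved by more than the spread between libraries (pooled SD of log2 CPM, 0.259 and 0.609). Plxna2 went from 0.67 to 0.27 and Plxnb3 from -0.78 to -0.17. The cause was not tested. Among the other 8 members 0 moved by more than the spread between libraries under any alternative. The signs of Plxna1, Plxna3, Plxnb1, Plxnb2 and Plxnd1, all near 0, changed in at least 1 alternative. Plxnb3 and Plxnd1 were not kept at a mean of at least 10 CPM. The pathway count was 0 under all 14 alternatives. Depth limits Plxnb3 and Plxnd1 most, at 12 to 62 counts per library.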
